A study of Mus musculus with 8 samples.

Results

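The Hoxa cluster is a row of homeobox genes on mouse chromosome 6, and 9 of them, Hoxa2 to Hoxa7 and Hoxa9 to Hoxa11, were followed in sorted cells of MLL-AF10 leukaemia. Members were all probe sets whose only gene symbol in the platform annotation is one of these 9 names. They came to 15 probe sets of 8 genes, among 45037 probe sets and 18193 named genes in all. Hoxa6 had no such probe set and was not analysed here. The other 8 genes had 1 probe set (Hoxa2, Hoxa7 and Hoxa11), 2 (Hoxa4, Hoxa5, Hoxa9 and Hoxa10) or 4 (Hoxa3).

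Hoxa proteins are transcription factors that bind DNA through a homeodomain, usually together with partners of the Meis and Pbx families, and set the identity of body segments in the embryo. In blood, the later genes of the cluster, Hoxa9 above all, are active in stem and progenitor cells and are switched off as myeloid cells mature. Leukaemias with a fusion of MLL, a histone methyltransferase that keeps Hox genes active, hold Hoxa9, Hoxa10 and Meis1 on. The comparison asks whether the cluster differs between leukaemic cells that carry the stem cell factor receptor c-kit (CD117) and those that do not, 2 fractions of the same disease.

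The cells were splenocytes of 4 mice with acute myeloid leukaemia. Each leukaemia arose in a sub-lethally irradiated syngeneic recipient, whose strain is labelled CD57BL/6, after transfer of c-kit-positive bone marrow cells that a retrovirus had transduced and immortalised. Both groups therefore carry MLL-AF10, and as labelled they differ only in the sort, into c-kit high (CD117pos) and c-kit negative (CD117neg). Each fraction of each mouse gave 1 Affymetrix array, 8 in all, and the mice are called _948, _951, _952 and _953 after the ends of the array titles. Replicates are separate animals, but the sources used here do not say whether the leukaemias share a transduction or a clone. Remaining spleen cells of the recipient could be present in either fraction.

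Kit, the gene of the sorted receptor, checked the labels with an intensity of 28.6 ± 9.73 (SD, n = 4) in CD117neg and 751 ± 127 in CD117pos arrays, a log2 difference of 4.12 ± 0.14 (SE, limma adjusted p = 0.000192). Array medians lay between 27.5 and 32.8. The CD117pos array of mouse _951 stood apart, since correlations among CD117pos arrays were 0.985 to 0.987 without it and as low as 0.928 with it. All 15 listed myeloid genes were measured with means of at least 100, and their summed intensity was 48419 to 53859 in CD117neg and 38574 to 44873 in CD117pos arrays. Summed intensities of other markers, CD117neg first, were 219 to 581 and 104 to 874 for 8 T cell genes, 914 to 1682 and 183 to 779 for 9 B cell genes, and 76.4 to 110.1 and 101 to 159 for 7 NK cell genes. They were 115 to 144 and 87.9 to 157 for 6 megakaryocyte genes, 380.2 to 451 and 247 to 943 for 11 endothelial and stromal genes, and 1296 to 1692 and 2806 to 4189 for 7 erythroid genes, of which the transferrin receptor gene Tfrc, also used by dividing cells, made up most. Past the test were 4 higher and 9 lower of the myeloid genes, 1 higher of the erythroid (Tfrc) and of the NK cell genes, 1 lower of the T cell and of the B cell genes, 2 lower of the endothelial and stromal genes, and 0 of the megakaryocyte genes (limma). Over all named genes 7.53% were higher and 12.9% lower. The myeloid count includes Kit itself, and leaving out mouse _948, _952 or _953 left 3, 5 or 4 of the myeloid genes lower, as a pseudocount of 1 left 5. The NK cell call and the 2 endothelial and stromal calls ended without any 1 of these mice. The NK cell call also ended without the block. Counts over all probe sets moved with these settings too, as given under processing below. Of the T, B and erythroid genes, 5 of 8, 3 of 9 and 3 of 7 lay below the median of every array, among them Cd3e, Pax5 and Hba-a1. Above the array medians in the mean of at least 1 fraction were, among others, Cd28 (means of 184 in CD117neg and 42.0 in CD117pos), Cd8a (96.4 and 186), Ighm (628 and 278), Cd79b (190 and 126) and Cd22 (326 and 17.2), of which Cd28 and Cd22 passed as lower, by -1.60 and -3.34 (limma adjusted p = 0.00903 and 0.00137). The Cd28 call ended without mouse _948 (0.0503) or _953 (0.0563) and without the block (0.0965). The part of other cells in the results below was not tested.

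The starts of the 3 genes on which the results turn are shown first, as a guide to the CpG content that MLL reads through a domain for unmethylated CpG. RefSeq promoters of build GRCm38.p6 cover 250 bases before to 50 bases after a start. They were found for 8 of the 9 genes, and all 9 windows lie on the minus strand. The windows shown are chr6:52204538-52204837 (Hoxa5), chr6:52227321-52227620 (Hoxa9), and chr6:52240805-52241104 and chr6:52234890-52235189 (the upstream and downstream starts of Hoxa10). Capitals mark CpG dinucleotides.
Hoxa5: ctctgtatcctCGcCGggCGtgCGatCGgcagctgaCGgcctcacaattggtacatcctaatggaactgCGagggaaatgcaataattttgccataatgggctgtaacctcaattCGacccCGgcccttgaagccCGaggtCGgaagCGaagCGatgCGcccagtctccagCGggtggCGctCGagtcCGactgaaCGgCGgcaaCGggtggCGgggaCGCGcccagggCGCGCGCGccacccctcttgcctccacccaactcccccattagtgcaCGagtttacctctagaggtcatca
Hoxa9: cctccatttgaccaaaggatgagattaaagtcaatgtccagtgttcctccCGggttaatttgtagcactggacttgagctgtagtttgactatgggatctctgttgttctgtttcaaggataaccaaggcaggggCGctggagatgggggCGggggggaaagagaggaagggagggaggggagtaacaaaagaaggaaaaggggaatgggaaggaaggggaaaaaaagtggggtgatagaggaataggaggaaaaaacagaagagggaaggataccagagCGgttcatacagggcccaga
Hoxa10 upstream start: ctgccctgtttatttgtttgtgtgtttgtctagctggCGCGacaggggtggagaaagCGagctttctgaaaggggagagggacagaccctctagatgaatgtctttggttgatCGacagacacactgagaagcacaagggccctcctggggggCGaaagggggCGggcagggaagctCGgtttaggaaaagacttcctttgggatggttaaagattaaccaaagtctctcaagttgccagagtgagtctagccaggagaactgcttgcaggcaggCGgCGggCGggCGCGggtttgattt
Hoxa10 downstream start: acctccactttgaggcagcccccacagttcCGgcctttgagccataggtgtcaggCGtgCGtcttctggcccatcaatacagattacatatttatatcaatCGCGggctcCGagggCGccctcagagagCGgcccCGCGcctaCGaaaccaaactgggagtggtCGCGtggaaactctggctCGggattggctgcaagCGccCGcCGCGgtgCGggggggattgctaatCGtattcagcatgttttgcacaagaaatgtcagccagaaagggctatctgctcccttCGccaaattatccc
The Hoxa5 window holds 29 CpG and the Hoxa9 window 4, against a median of 7 over 32841 promoters of the same length. The Hoxa10 windows hold 12 and 21. Fewer CpG than in the Hoxa5 window were found in 87.1% of promoters, and fewer than in the Hoxa9 window in 31.4%. The motif TGATTNAT, bound by Pbx with Hox proteins, and the Meis motif TGACAG were searched on both strands. None of the 4 windows shown holds either, while 3.22% and 19.2% of all promoters do. Of the other members, the Hoxa2 window holds 1 of each and the Hoxa3 window 1 TGACAG. The matches do not overlap, and these arrays do not measure which start is used.

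Most members did not pass the test between the fractions. Of the 15 probe sets 1 was higher and 0 were lower in CD117pos, where 5.6% of all probe sets were higher and 10.9% lower (limma with the mouse as a block, Benjamini-Hochberg adjusted p under 0.05). Without adjustment 5 of the 15 had a p under 0.05, against 29.9% of all probe sets. With each gene represented by its probe set of highest mean, 0 of 8 genes passed in either direction, beside 7.53% higher and 12.9% lower over all named genes, and 1 of the 8 had an unadjusted p under 0.05. The fractions did not overlap for 3 of the 15 probe sets, 1 higher and 2 lower in CD117pos, against 23.1% of all, 8.08% higher and 15% lower. The median log2 difference, CD117pos minus CD117neg, was -0.12 over the 8 genes and -0.01 over all named genes. Differences are on the scale of log2(intensity + 16), which understates the change of dim probe sets. In bulk fractions, fewer cells of a type and less RNA per cell cannot be told apart.

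**Figure D1:**
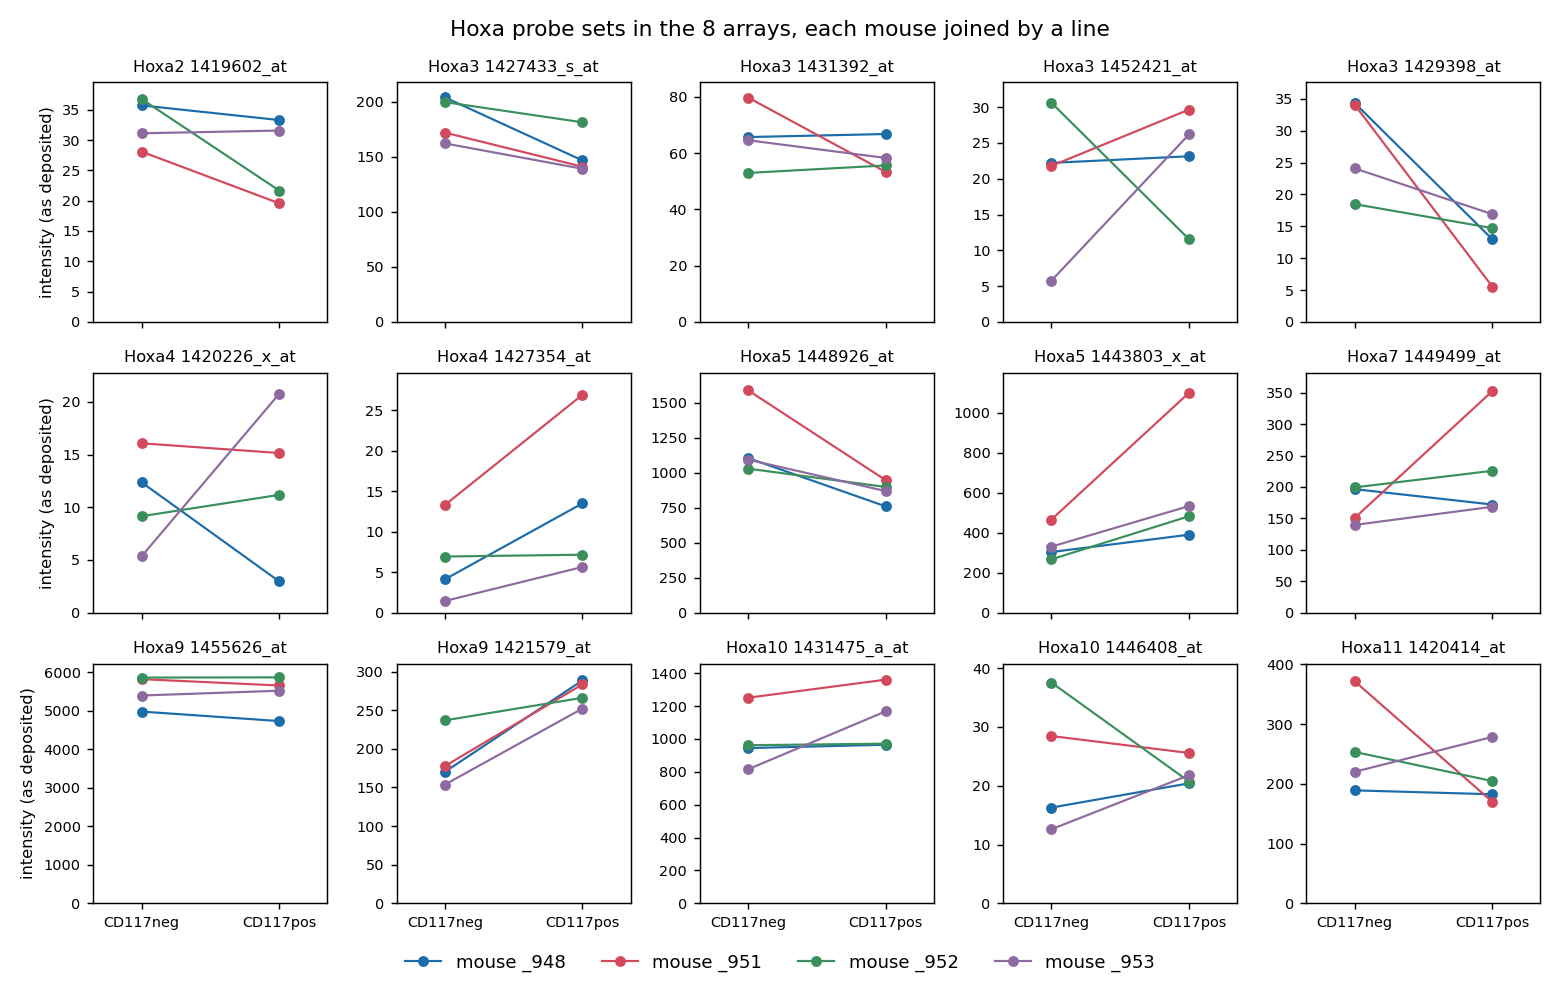
Intensity as deposited (vertical axes, each from 0) of the 15 Hoxa probe sets in the CD117neg and CD117pos arrays, with 1 line per mouse. Hoxa9 1455626_at stays between 4734 and 5869 on all 8 arrays, while in CD117pos Hoxa5 1448926_at is lower and Hoxa5 1443803_x_at higher along every line.

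Hoxa9 is the member most tied to MLL leukaemia, where it blocks maturation and sustains self-renewal. Probe set 1455626_at (Entrez gene 15405) read 4980.4, 5822, 5863 and 5398 in CD117neg arrays of mice _948, _951, _952 and _953, and 4734, 5658, 5869 and 5522 in their CD117pos arrays. All 8 values lay far above the array medians and the fractions overlapped, with the spread between mice larger than the step within any mouse. The log2 difference was -0.02 ± 0.11 (SE, limma adjusted p = 0.931), with a 95% interval of -0.29 to 0.25. Its sign turned to 0.13 after quantile normalisation and 0.07 after centring on array medians, and the mean of both Hoxa9 probe sets gave 0.26, none past the threshold.

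The other Hoxa9 probe set, 1421579_at, read 170.1, 178, 237 and 154 in CD117neg and 289, 284, 266 and 252 in CD117pos arrays in the same order of mice. It was higher in CD117pos in all 4 mice, and the fractions did not overlap, least clearly in mouse _952. The log2 difference of 0.54 ± 0.14 missed the threshold (limma adjusted p = 0.0527), with an interval of 0.19 to 0.89. It passed after quantile normalisation (0.0237), centring (0.0355), with a pseudocount of 64 (0.0369), without the block (0.0295) and among probe sets with a mean of at least 100 (0.0275). It did not pass in any fit without 1 of the 4 mice (0.0671 to 0.202). Between the 2 Hoxa9 probe sets the differences lay 0.56 ± 0.28 (SD, n = 4) apart, in 1 direction in all 4 mice (exact sign-flip test, two-sided p = 0.125, the smallest that 4 mice can give, and 0.25 when adjusted over the 4 genes with 2 probe sets).

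Hoxa10, which is active beside Hoxa9 in early myeloid cells, was measured by 1431475_a_at (Entrez gene 15395). It read 945, 1251, 962 and 816 in CD117neg and 965, 1361, 972 and 1168 in CD117pos arrays of mice _948, _951, _952 and _953. Mouse _951 was highest in both fractions, and the fractions overlapped. The log2 difference was 0.17 ± 0.14 (limma adjusted p = 0.484), with an interval of -0.16 to 0.50. The other Hoxa10 probe set, 1446408_at, stayed between 12.6 and 37.6, below the array median on 7 of 8 arrays, and differed by -0.02 ± 0.18.

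Hoxa5, a central gene of the cluster that is also used in lung development, gave the only call, and its 2 probe sets differed in opposite directions. Probe set 1443803_x_at (Entrez gene 15402) read 303, 466, 267 and 330.3 in CD117neg and 390.2, 1101, 483 and 534 in CD117pos arrays of mice _948, _951, _952 and _953. Each mouse rose, the fractions overlapped, and the CD117pos array of mouse _951 was highest by far. The log2 difference of 0.76 ± 0.17, a fold of 1.7, passed the threshold (limma adjusted p = 0.0312). It did not pass without the block (adjusted p = 0.135), with a pseudocount of 1 (0.0824), or without mouse _948 (0.0619), _952 (0.127) or _953 (0.111). Without mouse _951 it was 0.61 (adjusted p = 0.034), and without only that mouse's CD117pos array and without the block 0.46 (adjusted p = 0.141).

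The other Hoxa5 probe set, 1448926_at, read 1106, 1591, 1030.3 and 1095 in CD117neg and 759.9, 947, 899 and 869 in CD117pos arrays in the same order. It was lower in CD117pos in every mouse, and the fractions did not overlap. Its log2 difference of -0.45 ± 0.14 missed the threshold (limma adjusted p = 0.0819), with an interval of -0.78 to -0.11, but passed with a pseudocount of 64 (0.0495) and among probe sets with a mean of at least 100 (0.0423). It did not pass with any 1 mouse left out (0.121 to 0.254). After quantile normalisation it was -0.23. The 2 Hoxa5 probe sets lay 1.21 ± 0.50 apart (SD, n = 4), between 0.88 and 1.95 in single mice (exact sign-flip test, two-sided p = 0.125, adjusted 0.25). For the pairs of Hoxa4 and Hoxa10 the exact p was 0.5 and 0.375. The mean of both gave 0.16 (adjusted p = 0.403). The suffix _x_at marks probe sets whose probes can match other transcripts, and the annotation table lists no accession for this one.

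**Figure D2:**
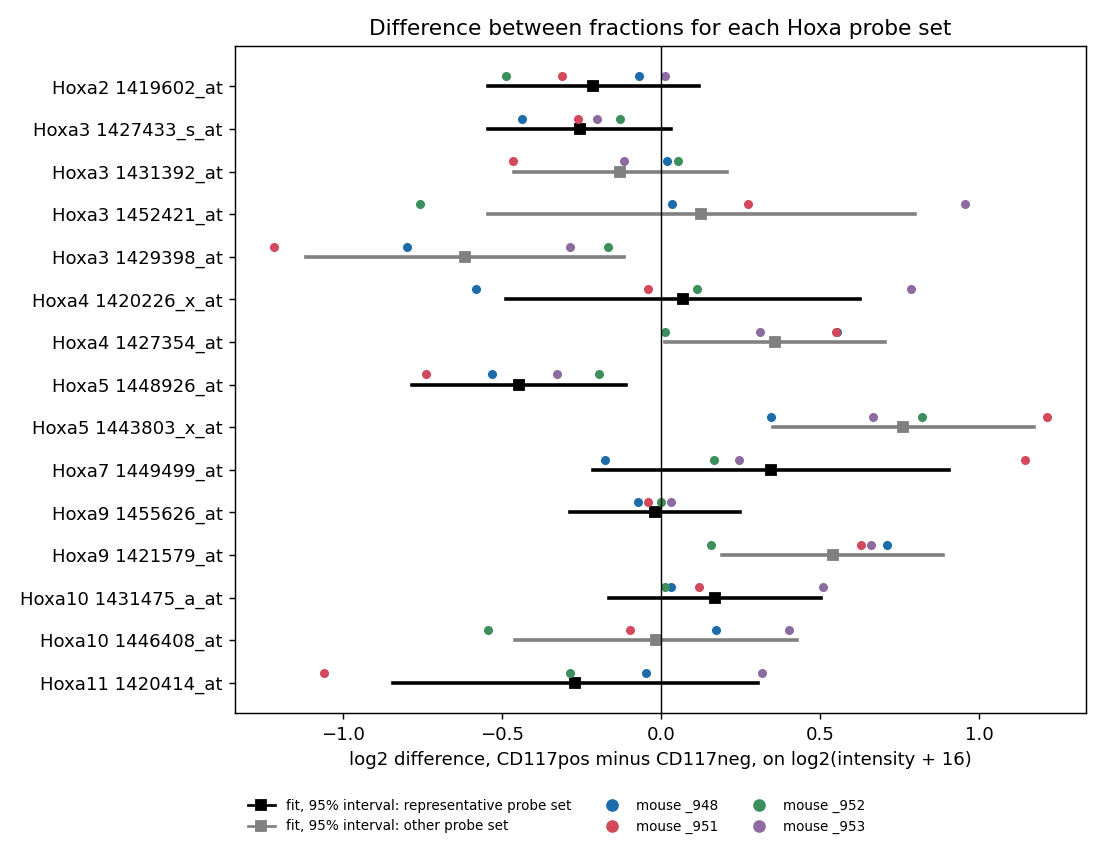
Log2 difference, CD117pos minus CD117neg, of each Hoxa probe set (horizontal axis), with squares for the fit over 4 mice, bars for its 95% interval and dots for single mice. The bar of Hoxa9 1455626_at runs from -0.29 to 0.25 around 0, and the bars of the 2 Hoxa5 probe sets lie on opposite sides of 0.

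Hoxa7, a central gene next to Hoxa9, read 197, 151, 199 and 139.5 in CD117neg and 172, 352, 226 and 168 in CD117pos arrays (1449499_at). The array at 352 is that of mouse _951, and the other 7 overlapped. Its log2 difference was 0.35 ± 0.23 (limma adjusted p = 0.386), and 0.08 without mouse _951. Hoxa11, a posterior gene known from limb and uterus, read 189, 372, 254 and 220.2 in CD117neg and 183, 170.0, 205 and 279 in CD117pos arrays (1420414_at). Mouse _951 had both the highest and the lowest value, and mouse _953 was higher in CD117pos where the others were lower. The log2 difference was -0.27 ± 0.23 (limma adjusted p = 0.519), and -0.0052 without mouse _951.

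The anterior genes, among them Hoxa2 and Hoxa3 of the hindbrain and pharyngeal arches and Hoxa4 of the neck vertebrae, had mostly dim probe sets. Hoxa3 1427433_s_at read 204, 172, 199.8 and 162 in CD117neg and 147, 141, 181 and 139 in CD117pos arrays. It was lower in CD117pos in all 4 mice with overlapping fractions, by -0.26 ± 0.12 (limma adjusted p = 0.215). Hoxa3 1429398_at read 34.4, 34.1, 18.5 and 24.1 in CD117neg and 13.0, 5.55, 14.7 and 16.9 in CD117pos arrays, without overlap. Of these 8 values 6 lie below the median of their array, and the difference of -0.62 ± 0.20 missed the threshold (limma adjusted p = 0.1), but passed without the block (0.0462). The remaining Hoxa3 probe sets differed by -0.13 ± 0.14 (1431392_at) and 0.13 ± 0.27 (1452421_at). Hoxa2 measured 32.9 ± 4.05 in CD117neg and 26.5 ± 6.91 in CD117pos arrays. Both Hoxa4 probe sets lay below the median of every array, at 1.43 to 26.9, and an absent transcript cannot be told from a weak one there. They differed by 0.07 ± 0.23 (1420226_x_at) and 0.36 ± 0.14 (1427354_at). The latter was higher in CD117pos in all 4 mice (limma adjusted p = 0.156, unadjusted p = 0.0447). It is thus among the 5 member probe sets with an unadjusted p under 0.05.

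Between mice, no member passed. The moderated F-test of the mouse terms gave 0 of 45037 probe sets (0%) at a limma adjusted p under 0.05, and 2998 (6.66%) at an unadjusted p under 0.05. Among the 15 Hoxa probe sets 2 had an unadjusted p under 0.05, Hoxa5 1443803_x_at (0.0166) and Hoxa4 1427354_at (0.0243). For the Hoxa5 probe set the mean log2 level over both fractions was 9.52 in mouse _951 and 8.49 to 8.77 in the others. For Hoxa9 1455626_at it was 12.25 to 12.52 over the 4 mice.

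Genes beside the cluster were set next to the members. In chromosome order, Snx10 and Skap2 precede Hoxa2, and Hoxa13, Evx1 and Hibadh follow Hoxa11, while Hoxa11os is read from the opposite strand at Hoxa11. Of 6 such genes measured among 13 listed, 1 fell (16.7%) and 0 rose, beside 12.9% and 7.53% of all named genes. The median log2 difference was -0.32. Snx10, a sorting nexin gene of endosomes used by macrophages and osteoclasts, fell from 923 ± 212 to 240.3 ± 129, a difference of -2.08 ± 0.29 (limma adjusted p = 0.00827). Its call ended without mouse _953 (adjusted p = 0.0541). Skap2, an adaptor of leukocyte adhesion, differed by -0.39 ± 0.12 (adjusted p = 0.0827), Hibadh, a valine breakdown enzyme, by 0.42 ± 0.12 (0.0772), and Hoxa11os by -0.90 ± 0.28 (0.0823). Hoxa13 read 11.6 to 21.7 in 7 arrays and 147 in the CD117pos array of mouse _951. Skap2, Hibadh, Hoxa11os and Hoxa13 were picked out with their values in view.

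**Figure D3:**
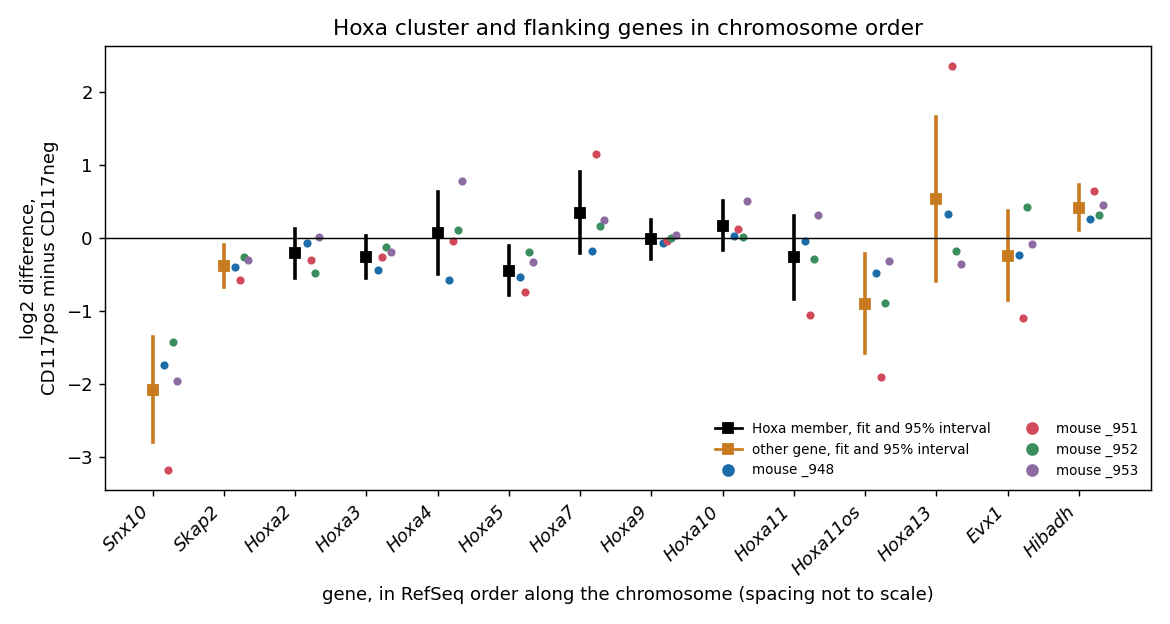
Log2 difference, CD117pos minus CD117neg (vertical axis), of the representative probe sets of Hoxa members (black) and other genes in or beside the cluster (orange) in chromosome order, with squares for the fit, bars for its 95% interval and dots for single mice. Snx10 at -2.08 lies apart from the representative probe sets of the Hoxa genes, whose fits lie between -0.45 and 0.35.

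Of 24 measured Hoxb, Hoxc and Hoxd genes among 28 listed, 0 passed in either direction (limma), beside 7.53% higher and 12.9% lower of all named genes. The median was 0.07, and the largest difference was that of Hoxd3, which patterns the axial skeleton, at 0.44 ± 0.21 (limma adjusted p = 0.225). Of their 32 probe sets 26 lay below the median of every array and 1 had a mean of at least 100, while 8 of the 15 Hoxa probe sets did. Of all 45037 probe sets, 17167 lay below the median of every array and 15331 had such a mean. Above the median of every array were 3, Hoxb4 1460379_at (means of 79.2 in CD117neg and 86.0 in CD117pos) and Hoxc6 1427362_x_at (102 and 117) and 1427361_at (72.4 and 69.6). A single probe set of the 32 passed, beside 10.9% lower and 5.6% higher of all probe sets. It was 1427454_at of Hoxc6, which went from 44.1 ± 12.8 to 15.0 ± 6.59 (limma adjusted p = 0.0127) and was picked out with its value in view. The other Hoxc6 probe sets differed by 0.07 ± 0.25 and -0.19 ± 0.38.

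Among 10 listed homeobox cofactors of the TALE class and their binding proteins, 9 were measured. Of these 4 fell (44.4%) and 0 rose, beside 12.9% and 7.53% of all named genes, with a median of -0.32. Pbxip1, whose product binds Pbx and hinders its joint binding with Hox proteins, fell from 1973 ± 310.1 to 579.5 ± 146, a difference of -1.76 ± 0.17 (limma adjusted p = 0.0028). Pknox1, a relative of Meis, fell from 729 ± 74.2 to 295 ± 96.6, by -1.32 ± 0.25 (limma adjusted p = 0.0209), and Pbx3 from 1245 ± 534 to 741 ± 323, by -0.76 ± 0.18 (limma adjusted p = 0.037). The Pknox1 call ended without mouse _948, _952 or _953 (adjusted p = 0.07 or more). The Pbx3 call ended without these mice (0.0761 or more), without the block (0.208), with a pseudocount of 1 (0.0945), after quantile normalisation (0.0815) and after centring (0.0581). The remaining call, Meis3, went from 15.8 ± 4.94 to 5.51 ± 0.774, below the median of every array (limma adjusted p = 0.0471). Meis1, at 1779 ± 220 and 1536 ± 242, did not pass, with a difference of -0.21 ± 0.11 (limma adjusted p = 0.282). Both Meis genes were picked out with their values in view. Of the list 1 fell without mouse _948, _952 or _953, 3 without _951, and 2 after quantile normalisation or centring. Over all probe sets 4892 fell as reported, 3721 after quantile normalisation and 4028 after centring. The overall count moved with the mouse left out too, as given under processing below.

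Most listed factors that act on Hox genes did not pass, nor did most named genes, of which 20.5% passed in either direction. Of 31 measured activators, among them subunits of MLL complexes and of the elongation machinery recruited by MLL fusions, 5 fell (16.1%) and 4 rose (12.9%), beside 12.9% and 7.53% of all named genes, and the median was -0.01. After quantile normalisation 8 rose and 2 fell, while over all probe sets 3952 rose and 3721 fell, in place of 2524 and 4892. Kdm6b, a demethylase that removes the polycomb mark H3K27me3, fell from 3239.8 ± 657 to 361 ± 117, by -3.15 ± 0.30 (limma adjusted p = 0.00282). Ell2, an elongation factor, fell by -1.34 ± 0.29 (adjusted p = 0.0302), and the arginine methyltransferase gene Prmt1 rose by 1.18 ± 0.29 (adjusted p = 0.0421). Of 21 polycomb genes, 2 fell (9.52%) and 1 rose (4.76%), and the median was -0.03. Phc2, a subunit of the first polycomb complex, fell by -1.45 ± 0.17 (adjusted p = 0.00497), Ezh1, a methyltransferase of the second, by -0.60 ± 0.11 (0.0208), and Mtf2, which guides that complex to CpG islands, rose by 0.61 ± 0.15 (0.043). The calls of Ell2, Prmt1, Ezh1 and Mtf2 ended without mouse _948, _952 or _953 (adjusted p of 0.0903 or more), and leaving out 1 of these mice left 1 rise and 1 fall among activators and 0 and 1 among polycomb genes. Counts over all probe sets likewise moved with the mouse left out.

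Of 20 measured genes that work on other leukaemias reported as bound or regulated by Hoxa9 or Meis1, 3 fell (15%) and 1 rose (5%), beside 12.9% and 7.53% of all named genes, and the median was -0.28. Cybb, the phagocyte oxidase gene, fell from 5881 ± 213 to 636 ± 473, by -3.82 ± 0.70 (limma adjusted p = 0.0178). Bcl2, the survival gene, fell by -2.12 ± 0.42 (adjusted p = 0.0224) and Syk, a tyrosine kinase gene, by -1.15 ± 0.18 (0.0116). The Cybb and Bcl2 calls ended without mouse _948 or _953 (0.074 or more) and the Syk call without _948, _952 or _953 (0.0556 or more). Of the list 0 rose or fell without mouse _948 or _953, while 5 fell without _951, 5 with an intensity trend and 1 with a pseudocount of 1. Counts over all probe sets also moved with the mouse left out and the pseudocount, as given under processing below. Among probe sets with a mean of at least 100, 6 of 14 fell and 1 rose. For scale, 34.4% of all probe sets with such a mean passed in the reported fit, in either direction.

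**Figure D4:**
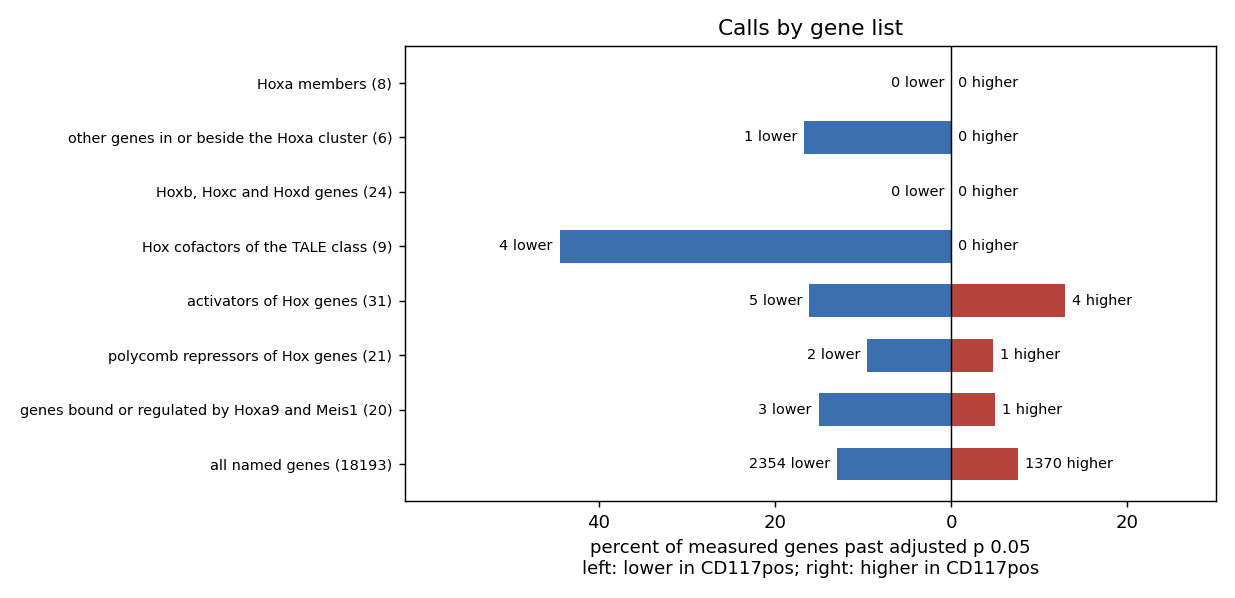
Share of measured genes past a limma adjusted p of 0.05 (horizontal axis, percent) that were lower (left) or higher (right) in CD117pos, by gene list, with the number measured in brackets. No Hoxa, Hoxb, Hoxc or Hoxd gene passed on its representative probe set, against 1370 higher and 2354 lower of all 18193 named genes.

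Genes with profiles most like those of members were found among 7099 others with a mean of at least 200, by Pearson's r of log2 values over the 8 arrays, which share 4 mice. They are given as a description. For Hoxa9 they were Dnaja1, an Hsp40 co-chaperone gene (r = 0.95), Eif4a2, a translation helicase gene (0.92), and Rprd2 (0.92). For Hoxa10 they were Erbin (0.93), Med31, a Mediator subunit gene (0.91), and Snapin (0.90). Hoxa5 1448926_at ran closest with Rb1cc1, an autophagy initiation gene (0.98), Bzw2 (0.97) and Cptp (0.97). Hoxa7 ran closest with Fbxo22, AI597479 and Gm12338 (0.92 to 0.95), where Spearman's rho was 0.93, 0.74 and 0.76. The highest Hoxa7 value was that of the CD117pos array of mouse _951. Hoxa11 ran closest with the receptor gene Tlr4, the kinase gene Braf and Ap1g1 (0.92 to 0.94). Of these 15 genes only Rb1cc1, at -0.67 (limma adjusted p = 0.0197), passed the test between fractions, a call that ended without mouse _948, _952 or _953 (0.0574 or more).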

How the data were processed

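Transcripts were measured on 1-colour Affymetrix arrays in CD117neg and CD117pos cells of 4 mice. Per the labels' protocols, polyA RNA went through a 2-cycle amplification with biotin labelling. The deposited values are probe set intensities on a linear scale, with a lowest value of 0.668 and 841 to 898 values of exactly 1 per array. The software and scaling behind them are not given in the sources at hand, and no further scaling was applied. Arrays have no read depth, and their number limits the precision.

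Of 45101 probe sets, 64 controls were left out, and 34945 of the others had 1 gene symbol in the platform annotation, 932 several and 9160 none listed. Identifiers of 34741 matched a current RefSeq gene table. Log2(intensity + 16) was fitted over all 45037 probe sets with limma 3.58.1 in R 4.3.3 (lmFit, eBayes, two-sided), with the mouse as a block, and adjusted by Benjamini-Hochberg (threshold 0.05). The fit was run on simulated data with independent noise, where changes were set only in probe sets with a mean of at least 200. That run covers neither an outlying array nor changes in dim probe sets. Each mouse gave both fractions, per the design text and the shared number in the titles. As a check, deviations from the fraction means correlated within a mouse by 0.18, 0.17, 0.19 and 0.06 for _948, _951, _952 and _953, against at most 0.11 with another mouse. For _953 the value within the mouse lay below the highest with another, so the check did not bear out that pair. The probe set of highest mean stands for a gene.

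Members and lists were chosen with earlier results of these data known. Named genes are all member probe sets, Kit, up to 3 genes per list that passed with the biggest differences (where none passed, the 1 with the biggest), and the 3 genes most like each member with a mean of at least 200. The marker lists serve as checks, and of their genes that the rule picks only Tfrc, Cd28 and Cd22 are named; the others printed were picked with their values in view. Alternatives covered pseudocount, scaling, block, filters, probe set choice, an intensity trend and leaving out each mouse. Leaving out 1 array of mouse _951 was added after seeing the data. Figures used matplotlib 3.10.9 in Python 3.11.15. Promoters are from RefSeq (GRCm38.p6), with none for Hoxa4.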

Additional observations from a re-analysis of the deposited data

Results flagged for a closer look

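Hoxa5 probe set 1448926_at in the CD117neg array of mouse _951 read 1591, far from the next value of that fraction, 1106. On the log2 scale the gap took up 0.84 of the range of the 4 arrays, past Dixon's 95% limit for 4 values. It was the 1 such case among 30 groups of 4 arrays examined (15 Hoxa probe sets in both fractions), where chance flags about 1 in 20 groups.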

How the results depend on the processing

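Over all probe sets, 2524 were higher and 4892 lower as reported. The counts were 1134 and 2930 with a pseudocount of 1, 3952 and 3721 after quantile normalisation, and 3329 and 4028 after centring, so that 34.0%, 51.5% and 45.2% of calls were higher as reported, after quantile normalisation and after centring. With 1 probe set per named gene they were 1504 and 2511, and without the block and _951 in CD117pos 3900 were higher. Leaving out 1 mouse gave 456 to 3575 higher and 1894 to 5571 lower. Without the replicate block, pairing the fractions of a mouse, 2649 were higher and 5235 lower.

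Of Hoxa probe sets, 1 was higher as reported, 0 with a pseudocount of 1, with 1 probe set per gene or without probe sets of shared sequence, 0 to 1 without 1 mouse, and 2 with a pseudocount of 64, quantile normalisation, centring or a mean of at least 100. In place of 0, 1 was lower with a pseudocount of 64, without the block or with a mean of at least 100. For scale, 34.4% of all probe sets with a mean of at least 100 passed in the reported fit, in either direction. Of the Hoxa probe sets 8 have such a mean. Of Hoxa genes, 1 in place of 0 was lower with a pseudocount of 64 or a mean of at least 100. Counts over all probe sets in these 2 settings are not given here, so the Hoxa counts there have no matching share beside them.

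Sign changes touched only differences that passed in neither setting. The new values were 0.0036 for Hoxa3 1431392_at, 0.13 for Hoxa9 1455626_at, 0.052 for Hoxa10 1446408_at, 0.089 for Eif4a2, 0.21 for Rprd2, 0.078 for Tlr4 and 0.035 for Ap1g1 after quantile normalisation. They were 0.074 for Hoxa9 1455626_at, 0.078 for Hoxa10 1446408_at, 0.089 for Rprd2 and 0.014 for Tlr4 after centring. With a pseudocount of 1 the sign turned to 0.019 for Hoxa10 1446408_at. With probe sets averaged per gene the differences were 0.16 for Hoxa5 and 0.26 for Hoxa9. These are means with the other probe set of the gene, not new values of 1448926_at and 1455626_at, which were negative. The new values were -0.028 for Gm12338 and 0.027 for Tlr4 without the block and _951 in CD117pos. Leaving out each mouse in turn gave ranges that cross 0, -0.15 to 0.42 for Hoxa3 1452421_at, -0.17 to 0.28 for Hoxa4 1420226_x_at, -0.16 to 0.16 for Hoxa10 1446408_at, -0.075 to 0.50 for Gm12338, -0.013 to 0.13 for Dnaja1, -0.054 to 0.046 for Rprd2 and -0.25 to 0.19 for Tlr4. The cause was not tested. Of the other alternative values for single probe sets and genes, 724 kept their sign and side of the threshold, 56 lost and 9 gained a call. Low signal, as of both Hoxa4 probe sets, limits what can be measured.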

Other observations

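Values of the CD117pos array of mouse _951 were looked at after the data were seen. Of the 15 Hoxa probe sets, 7 were above and 4 below all 3 other CD117pos arrays, against 30.1% above and 36.8% below over all probe sets. The largest steps over the mean of the other CD117pos arrays were 1.21 for Hoxa5 1443803_x_at, 0.86 for Hoxa7 and 0.81 for Hoxa4 1427354_at on the log2 scale, while both Hoxa9 probe sets lay at 0.08 or less. In the same array Hoxc6 1427362_x_at read 221.9, while its other 7 values lay between 76.6 and 120.1. Among marker genes of other cells, Cd8a read 537 there and 32.1 to 113 on the other 7 arrays, Thy1 245 and 9.97 to 53.2, and Pdgfrb 551 and 12.3 to 66.9. These 3 were picked with their values in view, and other markers did not follow. Cd3d and Cd3e stayed under 10 on all 8 arrays. The sum of the 9 B cell genes was 183 there and 450 to 1682 on the other 7 arrays. Pdgfrb made up most of the endothelial and stromal sum of 943 there. The part of these transcripts in the Hoxa values was not tested.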
